A study of Mus musculus with 8 samples.

Results

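The genes described here are 54 mouse genes of mitosis, which encode the G2/M cyclins and kinases, the chromosomal passenger complex, the spindle checkpoint and anaphase proteins, the kinetochore, the spindle kinesins, the central spindle and the condensins. They were chosen by name, with their So(d18:1) and Control values in these same libraries known, and matched to the deposited count table by their mouse GENCODE symbols. All 54 names matched 1 gene each among the 55357 genes listed, and 54 of 54 passed the filter on low counts that left 14514 genes to test. BMDM, macrophages grown from mouse bone marrow, came from C57BL/6J mice and were cultured for 5 to 6 days with M-CSF at 10 ng/ml, which both groups received. The So(d18:1) group was then given 2 μM of the sphingolipid base sphingosine d18:1 for 6 h, and the Control group was given methanol, the solvent, for the same time. Each group had 4 libraries of messenger RNA. The sample labels name no inflammatory stimulus, mouse, sex or batch, whereas the study's text places the cells under inflammatory stimulation, so a p-value here measures the spread between libraries whose separate origin the labels do not state. Since the list was proposed on the difference between So(d18:1) and Control itself, the differences of its members are given as a description with no test of the list.

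In a dividing cell, cyclin B and CDK1 start mitosis, the condensins fold each chromosome, and the kinetochore is assembled on centromeric chromatin so that spindle microtubules can hold it. The spindle checkpoint keeps the anaphase-promoting complex from acting until every kinetochore is attached, after which securin and cyclin B are destroyed, separase cuts the cohesin that joins sister chromatids, and the central spindle places the cleavage furrow. Transcripts of these genes are low in resting cells and accumulate together in late S, G2 and M phase. Macrophages grown in M-CSF still hold a share of cycling cells, since M-CSF is a growth factor for this lineage.

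Between 17748397 and 26088609 counts per library were assigned to genes. The macrophage markers were high throughout, with Csf1r at 6227 ± 98 CPM and Adgre1 at 2210 ± 60.9 CPM in Control libraries (SD, n = 4 each), where CPM is a gene's count scaled to a common library total. None of the 6 T and NK cell markers and none of the 6 erythroid markers had enough counts to be tested. The 10 markers of neutrophil precursors did, with Control means from 5.92 CPM for Ms4a3 to 697 CPM for Ngp. Replicates of 1 group differed by more than counting noise, with a chi-square per gene of 2.75 to 12.1. For levels compared between genes, counts were also divided by exon length (RPKM).

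The mitotic genes were higher in the So(d18:1) libraries. The log2 fold change, So(d18:1) over Control, was above 0 for 51 of the 54 genes, where 50.9% of all genes tested had a value above 0, and its median was 0.66, against 0.0036 over all genes tested. It ran from -0.13 for Cenpa to 1.07 for Ckap2. An adjusted p under 0.05 (edgeR's quasi-likelihood test with Benjamini-Hochberg adjustment over all 14514 genes) was reached by 11 of the 54 genes, 20.4%, with a higher level in So(d18:1), where 3.87% of all genes tested did so and 8.94% were called in either direction. These 11 were Nek2, Aurkb, Cdca8, Cdc20, Espl1, Cdca3, Cdca5, Kif15, Dlgap5, Ect2 and Smc2. None of the 54 was called lower, where 5.07% of all genes were, 0 of them had an unadjusted p under 0.05 in that direction, and 0 were called lower by DESeq2 or limma-voom. In 27 of the 54, each So(d18:1) library was above each Control library, where this held for 7.15% of all genes tested. At the study's own threshold, an unadjusted p under 0.05 with a fold change of at least 1.5, 32 of the 54 were higher, where 1.41% of all genes were. In RNA from whole cultures, a larger share of cells in mitosis and more of these transcripts in each such cell cannot be told apart.

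**Figure D1:**
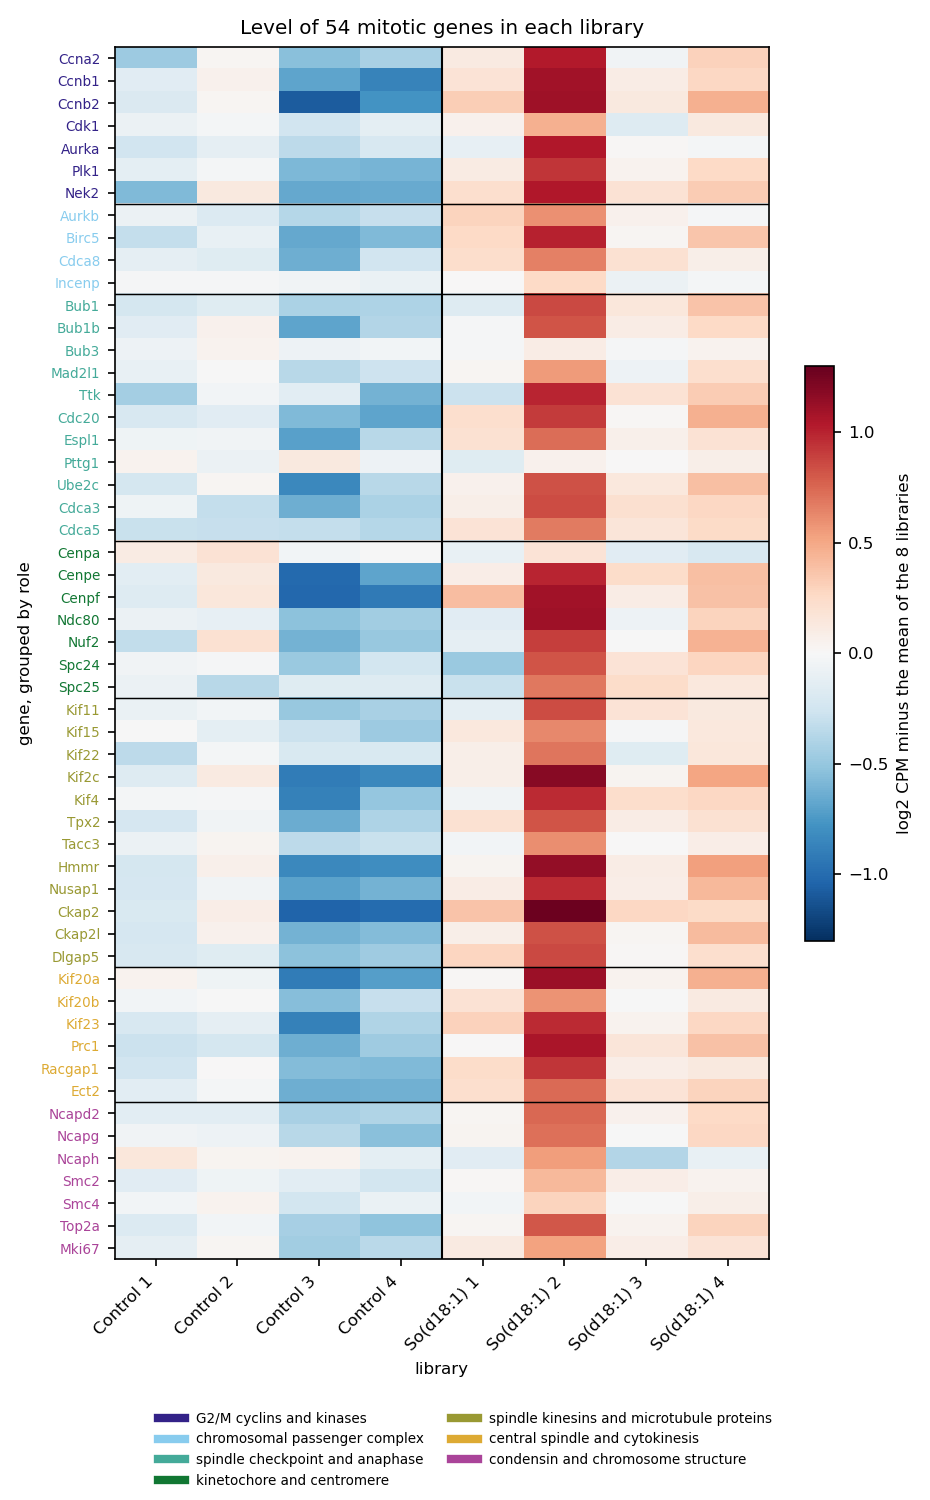
Level of the 54 mitotic genes in each of the 8 libraries, as log2 CPM minus the gene's mean over the 8 libraries (colour scale, blue below and red above the mean), with genes grouped by role. The column of So(d18:1) replicate 2 is the reddest for 53 of the 54 genes among the So(d18:1) libraries, and the lowest Control value lies in Control replicate 3 or 4 for 50 genes.

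Over the 54 genes, the mean log2 CPM of a library was 3.80, 3.92, 3.44 and 3.52 in Control replicates 1 to 4 and 4.01, 4.73, 4.01 and 4.18 in So(d18:1) replicates 1 to 4. The groups did not overlap, and So(d18:1) replicate 2 stood well above the other So(d18:1) libraries. The sum of the 54 genes' CPM was 1218, 1313, 997 and 1048 in the Control libraries and 1363, 2036, 1342 and 1474 in the So(d18:1) libraries, again with replicate 2 far the highest. Mki67 alone gave 16% to 18% of that sum. So(d18:1) replicate 2 was the highest of the So(d18:1) libraries for 53 of the 54 genes, where it was so for 23.9% of all genes tested, and the exception was Pttg1. Its level over the mean of the other So(d18:1) libraries had a median log2 ratio of 0.68 over the 54 genes and of -0.00044 over all genes tested. In the Control group, replicate 3 or 4 was the lowest library for 50 of the 54 genes, where this held for 50.3% of all genes.

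Without So(d18:1) replicate 2, the median log2 fold change of the 54 genes was 0.43. In that fit 16 genes were called higher, where 2.42% of all genes were, and 7 of the 16 were among the 11. Cenpa, with a log2 fold change of -0.22, was called lower there. Leaving out other libraries moved the count of 11 to 2 without Control replicate 4, 3 without Control replicate 3, 5 without So(d18:1) replicate 4 and 17 without So(d18:1) replicate 3. In those fits, in the same order, 2.47%, 2.85%, 2.47% and 3.46% of all genes tested were called higher. On all 8 libraries, the count was 30 by the Wald test of DESeq2, where 4.38% of all genes were called higher, and 38 by limma-voom, where 3.98% were.

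Many promoters of mitotic genes are known to hold a cell cycle homology region (CHR) near the transcription start and CCAAT boxes upstream of it, which are bound by the DREAM and MuvB complexes and by NF-Y. Promoter windows of 300 bases, 250 before to 50 after the RefSeq transcription start on GRCm38.p6, were at hand for 46 of the 54 genes. They are not shown for Ccna2, Aurkb, Incenp, Spc24, Tpx2, Dlgap5, Kif20a and Smc4. The 180 bases before the start are printed below for 4 genes whose level was higher in each So(d18:1) library and whose window holds the CHR and CCAAT letters (Ccnb2, Cdc20, Ckap2 and Top2a), and for Nusap1, which was also higher in each So(d18:1) library, and Ncaph, which was not, whose windows hold none of the motifs searched. Capitals mark the motifs searched, on both strands. For the CHR the letters were TTTGAA, which on the opposite strand of the stretch show as their reverse complement, and a known variant of the CHR, searched apart from it, was TTCGAA. The CCAAT box was searched by the 5 letters of its name, and a box on the opposite strand likewise shows as its reverse complement. The E2F core was searched by the letters GGCGGGA. No motif shares bases with another in the stretches shown. Each is written from 5′ to 3′ on the strand of the gene.
Ccnb2, chr9:70421555-70421734, minus strand: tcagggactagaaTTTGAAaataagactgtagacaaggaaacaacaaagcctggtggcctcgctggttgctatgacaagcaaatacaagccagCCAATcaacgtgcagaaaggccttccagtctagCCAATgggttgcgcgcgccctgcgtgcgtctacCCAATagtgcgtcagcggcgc
Cdc20, chr4:118437344-118437523, minus strand: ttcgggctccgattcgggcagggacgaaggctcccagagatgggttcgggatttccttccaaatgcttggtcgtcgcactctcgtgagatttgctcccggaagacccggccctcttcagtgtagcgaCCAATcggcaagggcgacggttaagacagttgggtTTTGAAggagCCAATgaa
Ckap2, chr8:22185820-22185999, minus strand: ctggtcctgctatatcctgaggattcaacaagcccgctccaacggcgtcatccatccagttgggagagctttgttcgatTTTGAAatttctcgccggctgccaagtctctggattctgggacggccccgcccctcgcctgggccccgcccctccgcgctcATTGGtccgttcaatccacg
Top2a, chr11:99024190-99024369, minus strand: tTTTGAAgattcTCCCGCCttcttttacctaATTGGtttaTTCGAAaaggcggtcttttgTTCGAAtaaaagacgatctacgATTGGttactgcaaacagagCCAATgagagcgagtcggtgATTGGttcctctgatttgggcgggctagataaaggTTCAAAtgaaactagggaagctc
Nusap1, chr2:119618118-119618297, plus strand: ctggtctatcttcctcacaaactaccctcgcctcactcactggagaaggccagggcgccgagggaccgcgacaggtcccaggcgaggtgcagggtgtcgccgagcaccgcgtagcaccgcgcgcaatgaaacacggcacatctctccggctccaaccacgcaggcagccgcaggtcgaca
Ncaph, chr2:127133955-127134134, minus strand: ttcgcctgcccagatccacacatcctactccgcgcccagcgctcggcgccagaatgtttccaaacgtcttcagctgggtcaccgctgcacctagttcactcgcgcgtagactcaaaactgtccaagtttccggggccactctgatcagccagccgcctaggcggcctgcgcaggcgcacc
The Ccnb2 stretch holds 3 CCAAT boxes and 1 CHR match, and its other CHR match lies past the start. In Cdc20 the CHR letters stand between a pair of CCAAT boxes, close to the start. Ckap2, with the largest log2 fold change, holds 1 match of each, and Top2a holds the most matches, 9 in the stretch shown. The same letters are absent from the stretches of Nusap1 and Ncaph, and of these Nusap1 had a log2 fold change of 0.82 and Ncaph of -0.0028.

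Among the 46 windows, 35 held TTTGAA on either strand (76.1%), against 12.1% of the 10039 windows of genes tested and 18.1% of all 27025 windows. Each gene was given 1 window, and for the 3 of the 46 with several, Bub3, Prc1 and Ect2, it was the one whose start is nearest to the GENCODE start. In 31 of the 46 (67.4%) the match lay within 50 bases of the start, where 3.01% of the genes tested had one there. The CCAAT letters were in 34 windows (73.9%, against 39% of genes tested), and both motifs were in 30 windows (65.2%, against 5.14%). The E2F core GGCGGGA was in 9 windows (19.6%), close to the 21% of all genes tested, and TTCGAA was in 3 (Bub1, Bub1b and Top2a). All 6 windows of the cyclins and kinases held CCAAT, and all 5 windows of the central spindle genes held TTTGAA. None of the 4 motifs was in the windows of Mad2l1, Ncaph, Nuf2, Nusap1, Pttg1 and Tacc3, 13% of the 46, against 41.6% of genes tested. No match says only that these letters are not in this window, and for 12 of the 46 genes the RefSeq start lies over 50 bases from the GENCODE start. Among the 12 are Pttg1 and Mad2l1, with none of the motifs, and Ccnb1, without TTTGAA. The difference between the groups was about as large with the CHR letters as without them. The median log2 fold change was 0.65 for the 35 genes with TTTGAA and 0.66 for the 11 without. It was 0.37 for the 6 genes with none of the motifs and 0.68 for the other 40. Matching letters in a window are a description and not evidence of a bound site.

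**Figure D2:**
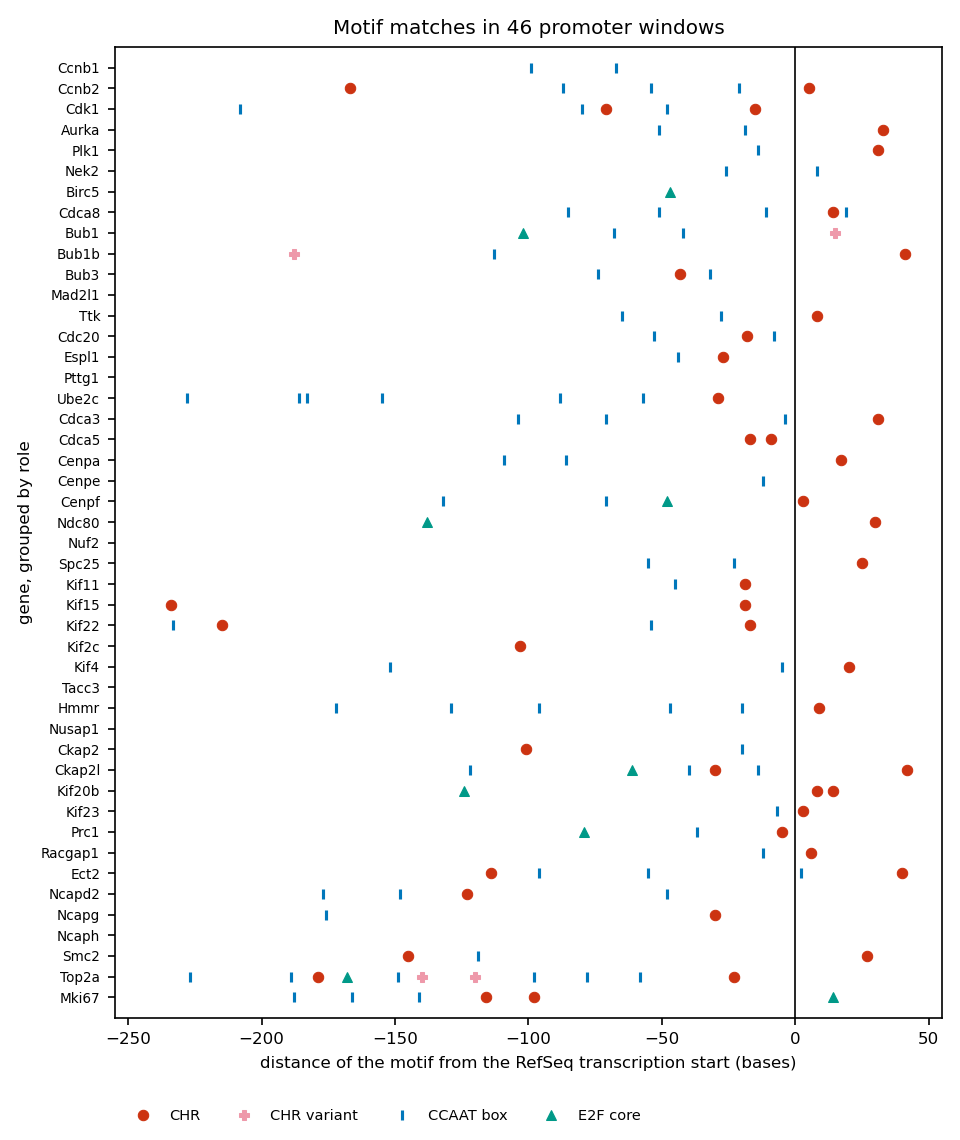
Position of each motif match in the 46 promoter windows, in bases from the RefSeq transcription start (vertical line at 0), with 1 row per gene, circles for CHR, crosses for the CHR variant, bars for CCAAT and triangles for the E2F core. CHR matches gather around the start, at a median distance of -16 bases over 46 matches, and CCAAT matches lie mostly upstream of it, at a median of -67 bases over 77 matches.

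The G2/M cyclins and kinases (Ccna2, Ccnb1, Ccnb2, Cdk1, Aurka, Plk1 and Nek2) had a median log2 fold change of 0.75, from 0.26 to 0.99. Of the 7 genes, 1 was called, and 5 had no overlap between the groups. This and the same counts for the role groups below stand beside 3.87% of all genes tested called higher and 7.15% apart in that direction. Ccnb2 (chromosome 9, 70407692 to 70421547, GRCm38), a B-type cyclin that activates CDK1, was at 14.2, 16.5, 7.66 and 9.44 CPM in Control replicates 1 to 4 and at 20.2, 34.6, 17.7 and 22.3 CPM in So(d18:1) replicates 1 to 4. The groups were apart, though the highest Control value, 16.5, lay close to the lowest So(d18:1) value, 17.7, and the log2 fold change was 0.99 (SE 0.32). Ccnb1, the main mitotic B-type cyclin, was at 12.1, 14, 8.38 and 7.38 CPM in Control against 15.2, 28.7, 14.4 and 16.2 CPM in So(d18:1) libraries, giving a log2 fold change of 0.84 (SE 0.32) with groups that only just did not overlap. Cdk1, the kinase they activate, differed least of the group. It was at 18.2, 18.8, 16.2 and 17.6 CPM in Control against 19.9, 26.5, 17.1 and 20.9 CPM in So(d18:1) libraries, which overlapped, with a log2 fold change of 0.26 (SE 0.11). Nek2, a kinase that separates the centrosomes, was the called gene of the group, at 3.36, 5.45, 3.16 and 3.17 CPM in Control against 5.83, 10.3, 5.72 and 6.28 CPM in So(d18:1) libraries (log2 fold change 0.89, SE 0.23). Control replicate 2 was the high library of its group and So(d18:1) replicate 2 of its own. The mean log2 CPM of the 7 genes was 3.24, 3.51, 2.92 and 2.98 in Control and 3.63, 4.45, 3.54 and 3.75 in So(d18:1) libraries. Without So(d18:1) replicate 2, the group's median log2 fold change was 0.47.

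The chromosomal passenger complex corrects wrong attachments between kinetochores and microtubules, and consists of the kinase AURKB, the scaffold INCENP, survivin (Birc5) and borealin (Cdca8). Its 4 genes had a median log2 fold change of 0.53, and 2 were called. Aurkb (chromosome 11, 69045647 to 69051664) was at 13.1, 12.2, 10.7 and 11.2 CPM in Control against 16.9, 20.8, 14.3 and 13.7 CPM in So(d18:1) libraries, with no overlap and a log2 fold change of 0.48 (SE 0.12). Cdca8 was at 14.2, 13.8, 9.9 and 13 CPM in Control against 18, 24.3, 17.7 and 16.2 CPM in So(d18:1) libraries, also apart, with a log2 fold change of 0.58 (SE 0.14). These are the called members of the complex. Birc5 had the largest difference of the complex, 0.86 (SE 0.23), at 10.5, 12.2, 8.21 and 8.78 CPM in Control against 15.6, 26, 13.3 and 16.7 CPM in So(d18:1) libraries, and was not called. Incenp differed least. It was at 67.1, 67.1, 65.5 and 63.8 CPM in Control against 67.7, 80.9, 63.9 and 66.2 CPM in So(d18:1) libraries, which overlapped. Its log2 fold change of 0.082 (SE 0.062) became 0.0021 without So(d18:1) replicate 2. Incenp was also the most abundant gene of the complex, at a mean of 15.7 RPKM against 4.79 RPKM for Aurkb, 4.09 RPKM for Birc5 and 3.07 RPKM for Cdca8.

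Among the 11 spindle checkpoint and anaphase genes, the median log2 fold change was 0.65. Of these, 4 were called, and 5 had no overlap between the groups. Cdc20 (chromosome 4, 118432901 to 118437352), which activates the anaphase-promoting complex once the checkpoint is satisfied, had the largest difference of the group. It was at 8.84, 9.22, 6.86 and 6.35 CPM in Control against 11.9, 19.1, 10.3 and 14.1 CPM in So(d18:1) libraries (log2 fold change 0.83, SE 0.20). Cdca5 (chromosome 19, 6084983 to 6091777) encodes sororin, which keeps cohesin on the sister chromatids until anaphase. Its Control libraries lay close together at 4.04, 4.02, 4 and 3.83 CPM, and its So(d18:1) libraries were at 5.6, 7.91, 5.51 and 5.89 CPM, a log2 fold change of 0.65 (SE 0.14) whose call held with each of the 8 libraries left out in turn. Espl1, the protease separase that cuts cohesin, was at 9.71, 9.78, 6.19 and 7.87 CPM in Control against 11.6, 16.7, 10.6 and 11.5 CPM in So(d18:1) libraries (log2 fold change 0.59, SE 0.17). Its inhibitor securin, encoded by Pttg1 (chromosome 11, 43420250 to 43426251), did not share this difference. Pttg1 was at 17.6, 16.2, 18.7 and 16.3 CPM in Control against 15.3, 17.7, 17.1 and 18 CPM in So(d18:1) libraries, which overlapped, with a log2 fold change of -0.012 (SE 0.081). The sign of that value turned, to 0.0013, 0.032 and 0.033, without Control replicate 1, Control replicate 3 and So(d18:1) replicate 1. Cdca3, a mitotic entry factor, was at 14.2, 11.9, 9.52 and 11.1 CPM in Control against 15.5, 26.6, 17 and 17.8 CPM in So(d18:1) libraries (log2 fold change 0.73, SE 0.18) and was the fourth called gene. Of the others, the checkpoint kinases Bub1 and Ttk had log2 fold changes of 0.66 and 0.68, Bub1b 0.60, Mad2l1 0.38 and the ubiquitin-conjugating enzyme Ube2c 0.71. Bub3, which also works outside mitosis, had 0.062 (SE 0.050), at 58.2 ± 2.18 CPM in Control against 60.8 ± 2.26 CPM with So(d18:1) (SD, n = 4 each). Without So(d18:1) replicate 2 the group's median was 0.42.

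The 7 kinetochore and centromere genes had a median log2 fold change of 0.64, but none was called and in none were the groups apart. Cenpf (chromosome 1, 189640606 to 189688086), a large protein of the outer kinetochore, had the largest difference of the group, 0.95 (SE 0.35). It was at 21.6, 26.8, 11.9 and 12.8 CPM in Control against 31.9, 51.6, 25.8 and 31.5 CPM in So(d18:1) libraries, so that Control replicate 2 lay above So(d18:1) replicate 3. Cenpa (chromosome 5, 30666777 to 30674830), the histone H3 variant that marks the centromere, was the lowest of the 54 by log2 fold change. It was at 104, 110, 93.9 and 96 CPM in Control against 90, 109, 87.2 and 83.6 CPM in So(d18:1) libraries, giving a log2 fold change of -0.13 (SE 0.078) with groups that overlapped through So(d18:1) replicate 2. Cenpa was the most abundant gene of the group by length, at a mean of 16.5 RPKM. The kinesin Cenpe had a log2 fold change of 0.83 (SE 0.32). The genes of the NDC80 complex, which binds microtubules, had values of 0.67 for Ndc80, 0.64 for Nuf2, 0.47 for Spc24 and 0.43 for Spc25. Between 30 and 91 counts of Spc24 were found in each So(d18:1) library, among the fewest of the 54. The group's median was 0.33 without So(d18:1) replicate 2, the lowest of the 7 groups in that fit.

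**Figure D3:**
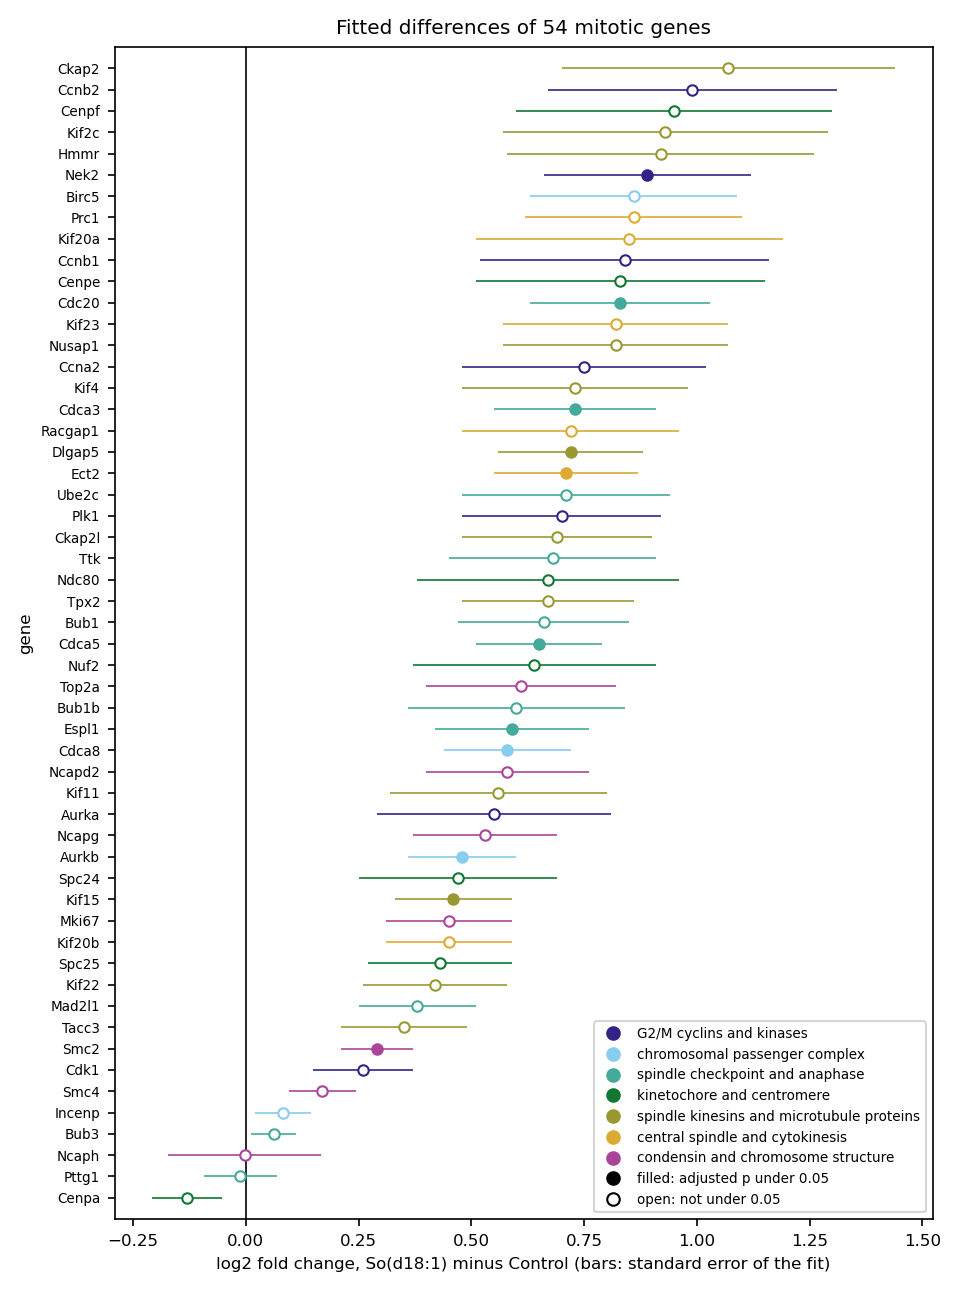
Fitted log2 fold change of the 54 genes (horizontal axis, So(d18:1) minus Control, bars 1 standard error of the fit), sorted by size and coloured by role. Filled points are the 11 genes with an adjusted p under 0.05, and 51 points lie to the right of 0. The genes with the largest values, such as Ckap2 at 1.07 with an SE of 0.37, also have wide bars and are open.

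The 12 spindle kinesins and microtubule proteins (Kif11, Kif15, Kif22, Kif2c, Kif4, Tpx2, Tacc3, Hmmr, Nusap1, Ckap2, Ckap2l and Dlgap5) were all above 0, from 0.35 to 1.07, with a median of 0.70. Of these, 2 were called and 4 had no overlap between the groups. Ckap2 (chromosome 8, 22168160 to 22185819), a microtubule-associated protein of the spindle poles, was at 6.1, 7.43, 3.41 and 3.5 CPM in Control against 9.07, 17, 8.43 and 8.33 CPM in So(d18:1) libraries. The groups were apart, Control replicates 3 and 4 were about as low as each other, and So(d18:1) replicate 2 was far above the rest. Its log2 fold change, the largest of the 54, was 1.07 (SE 0.37) and 0.75 without So(d18:1) replicate 2. Dlgap5 (chromosome 14, 47387779 to 47418407), which stabilises the microtubules near the chromosomes, was at 7.74, 8.03, 6.19 and 6.51 CPM in Control against 10.9, 16.3, 9.05 and 10.4 CPM in So(d18:1) libraries, apart and called, with a log2 fold change of 0.72 (SE 0.16). Kif15, the other called gene, had a log2 fold change of 0.46 (SE 0.13). Its lowest So(d18:1) library, at 15.4 CPM, lay just under its highest Control library, at 15.5 CPM. Tacc3, which binds microtubules with the kinase AURKA, differed least. It was at 17.6, 19, 14.6 and 15.1 CPM in Control against 18.1, 28.1, 18.6 and 19.7 CPM in So(d18:1) libraries, with a log2 fold change of 0.35 (SE 0.14), and its level of 5.3 RPKM was the highest of the 12. Kif2c, a kinesin that takes microtubules apart, and Hmmr had log2 fold changes of 0.93 (SE 0.36) and 0.92 (SE 0.34) with overlapping groups.

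The central spindle and cytokinesis genes had the highest median of the 7 groups, a log2 fold change of 0.77 over Kif20a, Kif20b, Kif23, Prc1, Racgap1 and Ect2. In 5 of the 6 the groups were apart, and 1 was called. That gene was Ect2 (chromosome 3, 27097222 to 27153878), the exchange factor that activates RhoA at the cleavage furrow, at 10.3, 11.1, 7.28 and 7.34 CPM in Control against 13.2, 18.9, 12.8 and 13.8 CPM in So(d18:1) libraries (log2 fold change 0.71, SE 0.16). Prc1, which bundles the microtubules of the midzone, had the largest value of the 6, 0.86 (SE 0.24). It was at 10.8, 11.2, 8.42 and 9.52 CPM in Control against 13.2, 27.4, 14.6 and 17.1 CPM in So(d18:1) libraries. Its So(d18:1) libraries were spread over a wider range than the Control libraries, with replicate 2 at the top. Racgap1, which with Kif23 forms centralspindlin, was at 17.3, 20.6, 13.9 and 13.8 CPM in Control against 24.3, 39.1, 21.8 and 22.4 CPM in So(d18:1) libraries (log2 fold change 0.72, SE 0.24). Kif20b had the smallest value, 0.45 (SE 0.14), at 15, 15.3, 10.5 and 12.5 CPM in Control against 17.5, 23.1, 15.3 and 16.6 CPM in So(d18:1) libraries. The highest Control and the lowest So(d18:1) value of Kif20b both round to 15.3 CPM. Kif20a, whose groups overlapped, had a log2 fold change of 0.85 (SE 0.34).

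Condensin and chromosome structure genes had the lowest median of the 7 groups, a log2 fold change of 0.45. Smc2 (chromosome 4, 52439243 to 52488260), an ATPase subunit of both condensins, was the 1 called gene of the 7. It was at 31.5, 33.6, 31.7 and 29.6 CPM in Control against 35.1, 46.6, 37 and 35.9 CPM in So(d18:1) libraries, apart, with a log2 fold change of 0.29 (SE 0.080) that became 0.19, and was no longer called, without So(d18:1) replicate 2. Its partner Smc4 had a log2 fold change of 0.17 (SE 0.075) and the second highest level of the 54, 21.5 RPKM. Of the subunits particular to condensin I, Ncapd2 had 0.58 (SE 0.18) and Ncapg 0.53 (SE 0.16), while Ncaph (chromosome 2, 127103809 to 127133954) had -0.0028 (SE 0.17). Ncaph was at 16.5, 15.2, 15.3 and 13.6 CPM in Control against 13.4, 21.6, 11.4 and 13.9 CPM in So(d18:1) libraries. Only So(d18:1) replicate 2 was above its Control range, and without that library its log2 fold change was -0.23. The sign turned to 0.0046 when counts were scaled by library size alone. Top2a (chromosome 11, 98992943 to 99024189), the topoisomerase that untangles sister chromatids, was at 61.6, 68, 51.8 and 48.5 CPM in Control against 71.1, 122, 72 and 85.2 CPM in So(d18:1) libraries, apart, with a log2 fold change of 0.61 (SE 0.21), the largest of the group. Mki67 (chromosome 7, 135689784 to 135716361), which encodes the proliferation marker Ki-67 that coats mitotic chromosomes, was at 210, 231, 166 and 179 CPM in Control against 246, 327, 242 and 257 CPM in So(d18:1) libraries. These did not overlap either, and the log2 fold change was 0.45 (SE 0.14). At 23.1 RPKM, Mki67 had the highest level of the 54, and Ttk had the lowest at 0.719 RPKM.

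**Figure D4:**
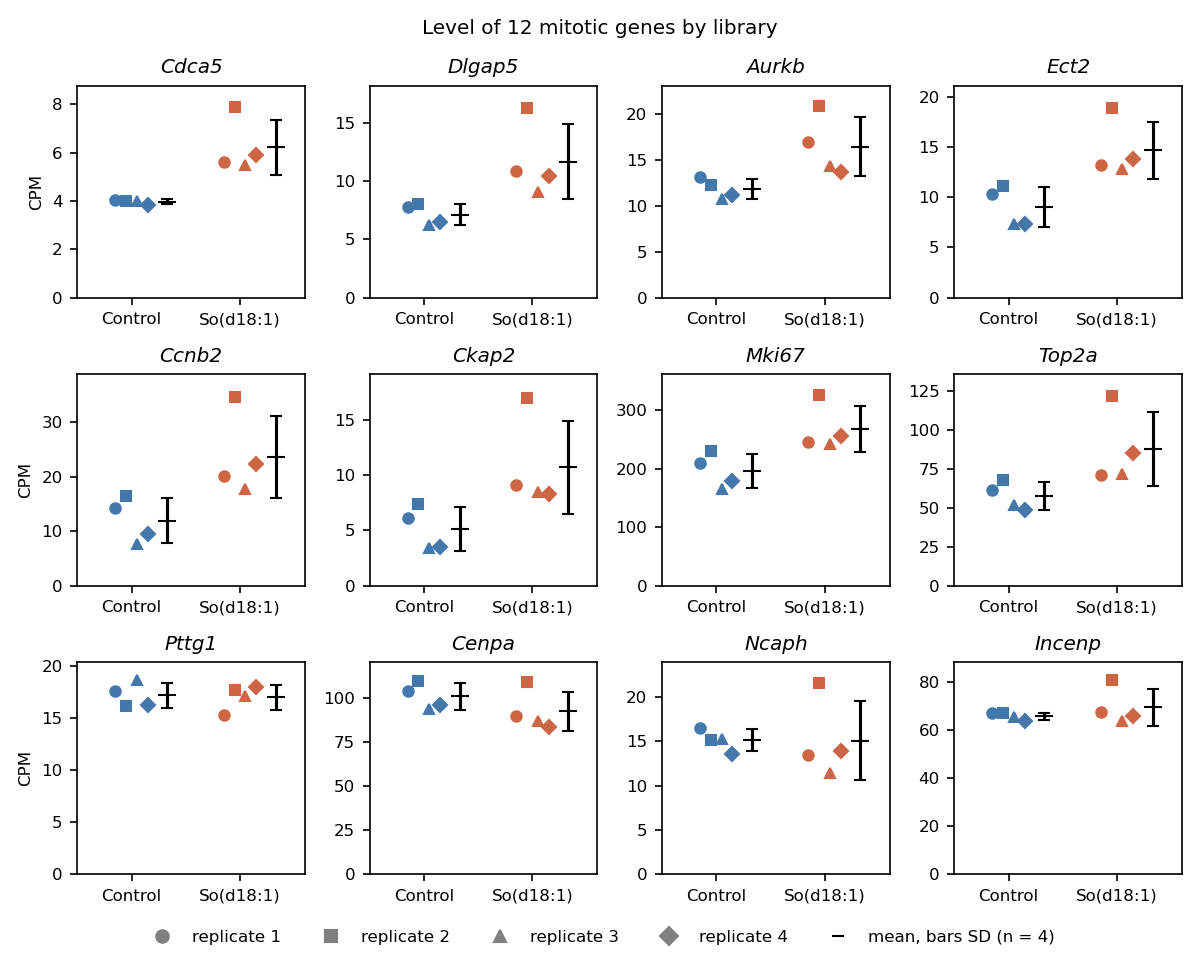
CPM of 12 of the genes in each library, with a point per library (shape gives the replicate number, which the labels do not state to pair the groups) and the mean with SD bars (n = 4) beside them. In the upper row and the middle row each So(d18:1) point lies above each Control point, while the groups of Pttg1, Cenpa, Ncaph and Incenp in the lower row overlap.

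The genes varied more within a group than most genes did. The SD of log2 CPM over the 4 Control libraries had a median of 0.238 over the 54 genes and 0.116 over all genes tested, and over the 4 So(d18:1) libraries it was 0.375 against 0.113. The genes that varied most in Control also tended to vary most in So(d18:1), with a Spearman correlation of 0.54 over the 54 genes, which share the same 8 libraries. The log2 fold change had a Spearman correlation of -0.30 with the mean RPKM over the 54 genes. So(d18:1) replicate 2 lay above the 8-library median in 54 of 54 genes, replicate 4 in 51, replicate 3 in 42 and replicate 1 in 36. Control replicates 1 to 4 did so in 8, 22, 2 and 1 genes. Each Control library was above the median in fewer genes than any So(d18:1) library, which the choice of the list on that difference already favours. No such counts were made over all genes tested.

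Markers of neutrophil precursors moved with the groups in the other direction, and those of other cell types did so only in part. All 10 of these markers (Elane, Mpo, Prtn3, Ctsg, Ltf, Camp, Ngp, Fcnb, Ms4a3 and Cebpe) were lower in So(d18:1), 7 of them with an adjusted p under 0.05, where 5.07% of all genes tested were called lower, and 8 with no overlap between the groups, where 7.87% of all genes had none in that direction. Their mean log2 CPM was 5.02, 4.86, 5.33 and 5.19 in Control replicates 1 to 4 and 4.65, 4.58, 4.59 and 4.69 in So(d18:1) replicates 1 to 4. Control replicate 3, the lowest in the mitotic genes, was the highest in these markers. None of the 10 was at 0 in any library. Ngp, at 697 ± 116 CPM, and Ltf, at 311 ± 51.3 CPM, were the highest of them in Control libraries. The macrophage markers ran from 210 ± 6.12 CPM for Mertk to 20699 ± 1036 CPM for Lyz2 there (SD, n = 4 each). The part of the 10 neutrophil precursor markers in the mitotic difference was not tested. Of the 7 progenitor markers tested, Myb and Sox4 fell and 5 were not called. The log2 fold change was above 0 for 3 of the 7, with Flt3 at 0.51, and below 0 for 4, and the median was -0.061. The mean log2 CPM of that list was 2.10, 2.22, 2.10 and 2.23 in Control and 2.01, 1.87, 2.14 and 2.09 in So(d18:1) libraries, which overlapped. Of the 4 monocyte markers, Ly6c2 fell and 3 were not called. Their mean log2 CPM was 5.83, 5.92, 5.80 and 5.82 in Control and 5.69, 5.73, 5.57 and 5.70 in So(d18:1) libraries, which did not overlap. The 5 B cell markers all had a log2 fold change below 0, with a median of -0.92, and Pax5 was the 1 called. Their mean log2 CPM was low, at 0.79, 0.71, 1.14 and 0.76 in Control and 0.52, -0.56, 0.14 and 0.32 in So(d18:1) libraries, with the lowest value in So(d18:1) replicate 2. The part of these lists was not tested either. None of the dendritic cell or fibroblast markers was called. Of the macrophage markers, Mertk and Cd68 fell, Itgam rose and 5 were not called.

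Genes of the same pathway outside the 54 were described by list, and each count can be read against the 3.87% of all genes tested that rose and the 5.07% that fell. Of 38 other mitotic genes, 8 rose (21.1%), none fell and the median log2 fold change was 0.51. The gene of that list with the smallest p was Fam83d, a spindle protein, at 1.06, 1.35, 0.926 and 0.577 CPM in Control against 2.3, 2.89, 2.08 and 2.05 CPM in So(d18:1) libraries, giving a log2 fold change of 1.25 (SE 0.25, adjusted p = 0.0024, edgeR's quasi-likelihood test). Wee1, the kinase that restrains CDK1, was at 7.16 ± 0.45 CPM in Control against 6.89 ± 0.935 CPM with So(d18:1) (SD, n = 4 each; adjusted p = 0.849, edgeR). Of 32 other kinetochore genes, 2 rose (6.25%, near the share of all genes) and the median was 0.24. Cenpi, of the inner kinetochore, rose with a log2 fold change of 0.57 (SE 0.17, adjusted p = 0.0362, edgeR), from 4.08, 3.62, 3.03 and 2.76 CPM to 4.37, 6.51, 4.58 and 4.46 CPM. That call was lost without Control replicate 3, Control replicate 4 or So(d18:1) replicate 2. Mis12, of the outer kinetochore, had -0.086 (edgeR, adjusted p = 0.428).

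The 15 genes of cohesin and condensin II had a median log2 fold change of 0.057, with 1 called higher and 1 called lower (6.67% each, near the shares of all genes). Ncapg2, a subunit of condensin II, fell from 224, 236, 216 and 216 CPM to 160, 175, 164 and 161 CPM, a log2 fold change of -0.44 (SE 0.045, adjusted p = 1.55e-06, edgeR's quasi-likelihood test). In this gene the So(d18:1) libraries lay close together and replicate 2 did not stand far above the others, in contrast to Ncapg, its counterpart in condensin I, at 8.99, 8.83, 7.2 and 6.35 CPM in Control against 9.47, 15.2, 9.26 and 11.2 CPM in So(d18:1) libraries. Rad21, the cohesin subunit that separase cuts, had a log2 fold change of 0.16 (edgeR, adjusted p = 0.0489) and lost its call without So(d18:1) replicate 2 and in 5 of the other 7 fits with a library left out. Of the 17 genes listed for the anaphase-promoting complex, 4 rose (23.5%) and 1 fell (5.88%), with a median of 0.046. The list also holds Fzr1, Ube2s and Fbxo5, which are not core subunits, and Fzr1 and Ube2s are among those that rose. Anapc5, a scaffold subunit, was at 119 ± 6.2 CPM in Control and rose to 142 ± 9.87 CPM (SD, n = 4 each), which is 0.25 as a log2 fold change (edgeR, adjusted p = 0.00355). Anapc15, which helps to release the checkpoint, was at 31.8 ± 2.06 CPM in Control and at 20.7 ± 3.47 CPM with So(d18:1) (SD, n = 4 each), and its log2 fold change was -0.63 (edgeR, adjusted p = 0.000784).

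Of 24 regulators of mitotic transcription, 2 rose (8.33%) and none fell, and the median log2 fold change was 0.022. E2f8, a repressor of the E2F family, rose from 13.6, 14, 10.4 and 12.9 CPM to 18.7, 21.8, 16.6 and 18 CPM, a log2 fold change of 0.56 (SE 0.10, adjusted p = 0.000932, edgeR). Foxm1, an activator of G2/M genes, was at 10.1, 10.7, 7.96 and 8.24 CPM in Control against 12.6, 20.3, 9.88 and 12 CPM in So(d18:1) libraries, with a log2 fold change of 0.57 (SE 0.22, adjusted p = 0.166, edgeR) and groups that overlapped. Mybl2, which joins the MuvB complex, had -0.021 (SE 0.18, adjusted p = 0.964, edgeR), and Rb1 had -0.14 (edgeR, adjusted p = 0.0803). For the 36 S-phase genes the median was 0.11, and 1 rose (2.78%, below the share of all genes) and none fell. That gene was Rpa2, a single-strand DNA binding protein, with 0.37 (edgeR, adjusted p = 0.026), while the helicase subunit Mcm3 had -0.30 (edgeR, adjusted p = 0.0891). The mean log2 CPM of the S-phase genes was 3.35, 3.28, 3.38 and 3.31 in Control and 3.41, 3.47, 3.31 and 3.37 in So(d18:1) libraries, which overlapped, unlike the mitotic genes. The difference between these lists was not tested. TTTGAA was in the promoter windows of 13.8% of the S-phase genes, 51.9% of the other mitotic genes and 39.3% of the other kinetochore genes. For GGCGGGA the shares of these lists, in the same order, were alike at 37.9%, 37% and 39.3%. For CCAAT they were 65.5%, 66.7% and 67.9%, not far below the 73.9% of the 54 genes' windows.

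**Figure D5:**
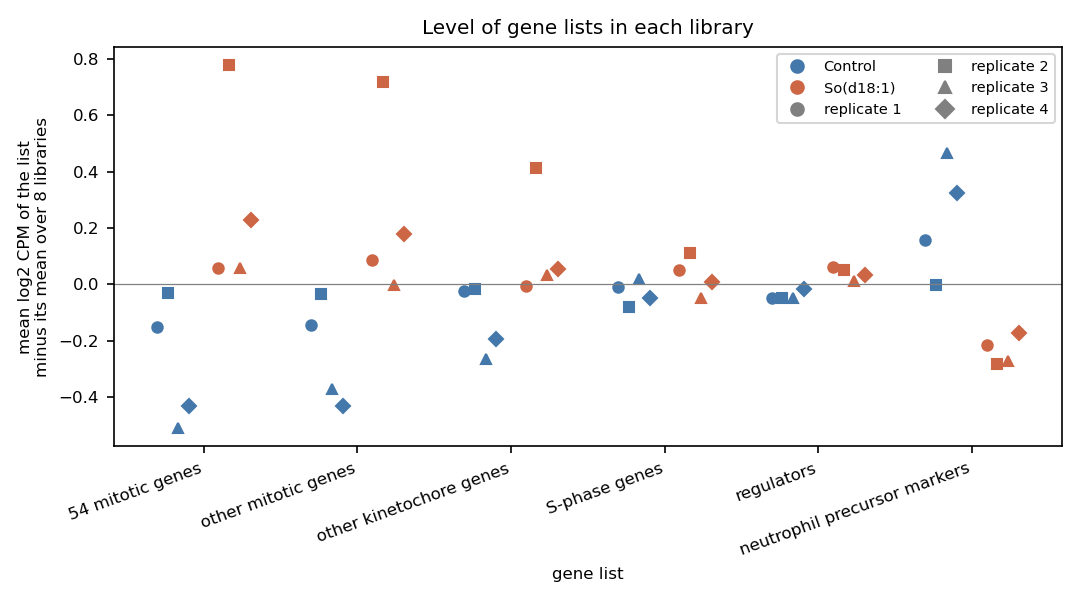
Mean log2 CPM of 6 gene lists in each library, minus the list's mean over the 8 libraries, with Control in blue, So(d18:1) in orange and the replicate number as the shape. So(d18:1) replicate 2 is highest for the 54 mitotic genes, the other mitotic genes and the other kinetochore genes. It is also highest, by less, for the S-phase genes, which lie close to 0 in both groups. The neutrophil precursor markers lie higher in Control.

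Some counts are uncertain because neither the strand setting nor the handling of reads with several matches is given in the sources used here. Exons of 16 of the 54 genes overlap another gene, and those of Ncapd2 and Top2a overlap small genes on their own strand. For 8 genes over 10% of the 50-base words of the transcript occur in another gene, namely Ccna2, Ccnb1, Plk1, Cdc20, Ube2c, Kif4, Kif20a and Ncapg. The highest shares were 25.2% for Kif20a, with Cdc23, and 23.4% for Ccnb1, with the pseudogene Ccnb1-ps.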

How the data were processed

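RNA-seq was made from 8 BMDM libraries, 4 Control and 4 So(d18:1). Per the study's methods and processing notes, reads were trimmed (Trim Galore 0.6.7), mapped to mm10 (HISAT2 2.2.1) and assigned to genes (featureCounts 2.0.1). The authors deposited raw counts for each Ensembl gene in 1 table of all libraries. Groups and columns were taken from the sample titles, and 0 columns were left unmapped.

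The raw counts entered edgeR 4.0.16 (with limma 3.58.1, in R 4.3.3): filterByExpr, TMM scaling and the quasi-likelihood F test over all 14514 genes tested, with Benjamini-Hochberg adjustment. The SE is the absolute log2 fold change over the square root of F. For log2 CPM the prior count was 2. The code was tested on simulated data. Totals per library, 17748397 to 26088609, limit the precision of low genes, and an exact permutation test of 4 against 4 libraries cannot go below a p of 0.0286.

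The mitotic genes and every list were chosen with earlier results of these data known. Genes named with values in each library were those of highest level per length and largest and smallest log2 fold change in each role group, those called without overlap, Cdk1, Ccnb1, Mki67 and Top2a; of the other lists, the smallest p in each direction, Foxm1 and Mybl2. Further genes were named after their values were seen. Promoters are RefSeq windows on GRCm38.p6, read in Python 3.11.15, and figures were drawn with matplotlib 3.10.9. Alternatives were DESeq2 1.42.0 (size factors and Wald test), limma-voom, library size alone, no filter, at least 10 counts in every library, the study's threshold, a replicate block and each library left out.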

Additional observations from a re-analysis of the deposited data

Results flagged for a closer look

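Of 122 groups of 4 libraries examined, for the named genes and the lists, 1 library stood apart from the other 3 in 6, where chance gives 6.1 (by Dixon's ratio, which divides the distance between the outermost library and its neighbour by the whole range). So(d18:1) replicate 2 was the high library in 5 of the 6. The ratio was 0.881 for Ckap2, at a log2 CPM of 4.10 against 3.08 to 3.20 in the other So(d18:1) libraries, 0.844 for Nek2, at 3.39 against 2.54 to 2.67, and 0.83 for Ccnb1, at 4.85 against 3.86 to 4.03. It was 0.884 for Cenpi, at 2.72 against 2.16 to 2.22, and 0.847 for the mean of the other kinetochore genes, at 3.24 against 2.82 to 2.88. In the Control group it was 0.885 for Nek2, at 2.47 in Control replicate 2 against 1.70 to 1.79. These genes share the same libraries, so the 6 are not independent, and the cause was not tested.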

How the results depend on the processing

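On all libraries 1298 genes were called, 564 passed the study's threshold, a different rule and not a subset of the 1298, and 815 to 1370 were called with 1 library left out. The mitotic genes called higher, 11 on all libraries, numbered 28 with no filter on low counts, 30 by the Wald test of DESeq2, 38 by limma-voom and 32 at the study's threshold, and 2 to 17 with 1 library left out. Of all genes, 3.87% were called higher on all libraries, 2.8% with no filter, 4.38% by the Wald test, 3.98% by limma-voom and 1.41% at the study's threshold. With 1 library left out, 2.42% to 3.94% were. The number called lower was 0 to 1. Of the 162 genes of the other lists, 20 were called in either direction (11.1% higher and 1.23% lower). That count was 43 with no filter and 8 to 22 with 1 library left out. Of all genes tested, 8.94%, 6.14% and 5.49% to 9.37% were called in either direction in those fits, in the same order. The median of the regulators of mitotic transcription lay between 0.0043 and 0.059. With 1 library left out, Pttg1 ranged from -0.041 to 0.033, Ncaph from -0.23 to 0.11, Wee1 from -0.12 to 0.036 and Mybl2 from -0.19 to 0.13, so their signs are not settled. The sign of Ncaph also turned with library size alone (0.0046) and with no filter (0.0022). The cause of these moves was not tested. Same-numbered libraries of the groups correlated, over genes and after removal of group means, at -0.004, 0.1, 0.033 and 0.009, so the numbers do not pair them. With a replicate block, 46 mitotic genes were called higher, the 11 among them, where 5.57% of all genes were. In that fit 45 genes of the other lists were called in either direction, where 12.3% of all genes were. The remaining alternatives for scaling and filtering, DESeq2's size factors (10 mitotic genes called), library size alone (9) and at least 10 counts in every library (10), changed these counts by under 1.5 times. In the same order, 3.75%, 4.08% and 3.93% of all genes were called higher.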
